A study of Mus musculus with 72 samples.

Results

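This account covers 10 genes of the actin cytoskeleton, chosen by symbol from the 51826 genes counted in the series: Actb, Actg1, Vcl, Flna, Tpm1, Myh9, Cfl1, Pfn1, Arpc2 and Actr3. The first 6 are commonly listed as targets of serum response factor, the transcription factor that actin dynamics control, and the other 4 encode subunits and binding proteins that are usually regarded as constantly expressed. The rule uses no measured value, and all 10 passed the filters on low values.

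The study labelled newly made RNA in mouse embryonic stem cells of the line E14TG2a with 4-thiouridine (4sU), a uridine analogue that is read as a T-to-C conversion (T2C) after alkylation. Cells were then split with detergents into a cytosolic extract (digitonin), a membrane extract (NP-40) and a pellet that holds nuclei together with insoluble material, and poly(A)-selected, strand-specific libraries were made from each fraction and from whole cells. The 72 libraries form 4 fractions of 18, and each fraction holds pairs of independently passaged cultures: replicates 1 and 2 at 15, 20 and 30 min of labeling, replicates 3 and 4 at 20, 40, 60 and 120 min, and replicates 5 and 6 at 60 and 120 min. All cells carried the same genotype, grew in medium with serum, 2i inhibitors and LIF, and received 4sU, at 500 µM up to 40 min and at 100 µM for 60 and 120 min by the labels, so dose, labeling time and replicate pair cannot be told apart where they change together. The 8 libraries of 120 min in replicates 3 and 4 were set aside except in comparisons of labeling times, which leaves 64 libraries, 16 a fraction. The study's methods also leave out long labeling at the higher dose, because gene expression changed under it, whereas the labels give these libraries the lower dose. Labels and methods differ for the dose of replicates 3 and 4 at 60 min too, so it is uncertain. The T2C conversion rate estimated for the cytosol at 60 min was 5.83% and 7.57% in replicates 3 and 4. In replicates 5 and 6 it was 2.38% and 2.58%. At 120 min the rates were 8.83% and 11.4% in replicates 3 and 4 and 3.26% and 3.36% in replicates 5 and 6. The share of new RNA of the median gene in the cytosol at 60 min was 0.0924 and 0.0929 in replicates 3 and 4 and 0.206 and 0.181 in replicates 5 and 6.

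Libraries held 13185351 to 52975732 reads on genes (median 21494524.5). Pluripotency markers were high in every library, with a summed length-normalized level of 5500 to 16863 over 8 genes, against 0.21 to 13.4 over 8 fibroblast markers, of which Lum was at 0 in every library, Dcn, Col1a2 and Col3a1 were at or near 0 and Thy1 was the highest. The whole-cell libraries of replicate 6 go against their labels: the share of new RNA of the median gene was 0.374 in the library labelled 60 min and 0.175 in the library labelled 120 min, while replicate 5 went the other way. Whole-cell results are therefore given with and without replicate 6. Nuclear libraries also differed in intronic content, which ran from 14.7% to 40.0% of the counted T positions and was highest in replicate 3 at 20 min.

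Actin monomers assemble into filaments that give a cell its shape and pull on its contacts. Profilin (Pfn1) delivers monomers to growing ends, cofilin (Cfl1) severs old filaments, and the Arp2/3 complex, of which Arpc2 and Actr3 are subunits, starts branches. Filamin A (Flna) cross-links filaments, tropomyosin (Tpm1) coats them, the non-muscle myosin heavy chain (Myh9) pulls on them, and vinculin (Vcl) ties them to adhesion sites. Free monomers hold back the serum response factor coactivators of the MRTF family, so genes for actin and its partners can be induced together when monomers are used up. Actb is a textbook example of a gene that fibroblasts transcribe within minutes of serum addition and whose mRNA is stable.

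The sequences of the 2 cytoplasmic actins are shown because their coding parts are alike, which may limit how reads can be assigned. Only the coding part was compared, while the exons cover 2679 bases in Actb and 2658 in Actg1. Both genes have a coding sequence of 1128 bases in 5 coding exons, of which 1000 bases (88.7%) are identical, and the longest identical run is 62 bases. The study's reads were longer than this run. The first 120 coding bases, taken from the GENCODE transcripts for GRCm38, lie at chr5:142905567-142905686 on the minus strand for Actb and at chr11:120347972-120348091 on the minus strand for Actg1, inside the first coding exon. Capitals mark the 22 bases that differ.
Actb: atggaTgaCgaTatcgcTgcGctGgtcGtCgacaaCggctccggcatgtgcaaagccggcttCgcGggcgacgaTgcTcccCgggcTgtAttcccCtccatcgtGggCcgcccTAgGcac
Actg1: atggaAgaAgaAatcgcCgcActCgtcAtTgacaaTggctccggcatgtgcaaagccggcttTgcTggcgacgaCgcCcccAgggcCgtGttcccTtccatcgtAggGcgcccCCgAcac
Reads were counted only where they aligned to 1 place, so fragments that match both mRNAs, or processed pseudogenes of the actins, could be lost. Values of Actb and Actg1 are uncertain to that extent.

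The binding motif of serum response factor is the CArG box, a palindromic motif that was searched by its usual degenerate form, which covers both strands, in promoters from 250 bases before to 50 bases after the RefSeq start (GRCm38.p6). It was found in 535 of 32851 promoters of all genes (1.63%), in 2 of the 5 promoters matched for serum response members, and in 0 of the 4 promoters of Cfl1, Pfn1, Arpc2 and Actr3. Of the promoters of other listed serum response targets, 9 of 20 held it. Actb had no entry in the promoter table. The promoter stretches that hold the box, in capitals, are at chr11:120348531-120348630 on the minus strand for Actg1, where the box begins 90 bases before the start, and at chr14:20929148-20929225 on the plus strand for Vcl, where it begins 227 bases before the start.
Actg1: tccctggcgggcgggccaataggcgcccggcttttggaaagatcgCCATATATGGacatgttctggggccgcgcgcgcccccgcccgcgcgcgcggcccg
Vcl: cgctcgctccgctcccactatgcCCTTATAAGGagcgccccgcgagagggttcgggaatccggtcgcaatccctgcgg
A match describes these letters only, and factor binding was not measured here.

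The 10 genes spanned a wide range of levels. Levels are given per length, as reads per kilobase of exon scaled to a fixed total per library. In whole cells the mean level of Actb was 1666 ± 760 (SD, n = 16), rank 37 of 13393 genes, followed by Cfl1 with 723 ± 278, Pfn1 with 508 ± 207 and Actg1 with 389 ± 171. Arpc2 had 215 ± 62.7, Flna 202 ± 101, Actr3 109 ± 30.2, Vcl 66.7 ± 29.5, Myh9 58.6 ± 27.8 and Tpm1 23.8, from 12.7 to 33.3 and rank 5326. Neighbours in this order were ranked alike in all or nearly all libraries except around Arpc2, Flna, Vcl and Myh9. Arpc2 exceeded Flna in 10 of 16 libraries, Actr3 exceeded Vcl in 12 of 16 and Vcl exceeded Myh9 in 10 of 16. These pairs were not separated beyond their spread. Much of the whole-cell SD came with the replicate pairs: Actb lay at 2059 to 2779 in all 6 used libraries of replicates 3 and 4, and at 764 to 1529 in the other 10. The whole-cell library of replicate 5 at 60 min had the lowest value of Actr3, Arpc2, Flna, Myh9, Pfn1, Tpm1 and Vcl. Bulk levels do not tell fewer cells with a transcript from less of it per cell.

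**Figure D1:**
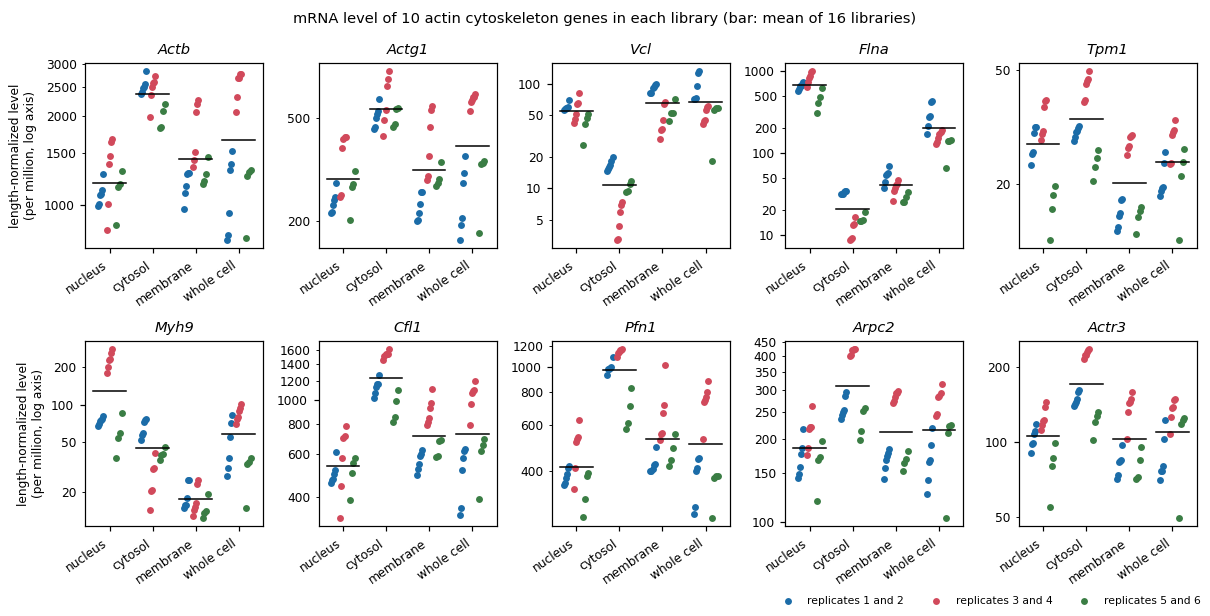
Length-normalized mRNA level (log axis, scaled to a fixed total per library) of each of the 10 genes in every used library of the 4 fractions, with points coloured by replicate pair and a bar at the mean of 16 libraries. Flna and Vcl are lowest in the cytosol, where their means are 20.7 and 10.8, while Actb, Actg1, Cfl1, Pfn1, Arpc2 and Actr3 are highest there.

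The nucleus was compared with the cytosol to see in which fraction each mRNA is enriched. Levels are relative to the other mRNAs of the same fraction. They do not tell which fraction holds more molecules, and the study estimates that the cytosol holds the least mRNA of the 3 fractions. Higher and lower are meant in this relative sense here and for the membrane. Flna stood out: its level was 306, 663 and 987 (lowest, median and highest of 16) in the nuclear fraction and 8.68, 15.8 and 34.8 in the cytosol, and within a culture the nuclear level was 16.2 to 113 times the cytosolic one (median 29.3). The groups did not overlap. The edgeR quasi-likelihood test gave a log2 difference of 4.63 ± 0.08 (SE) with a Benjamini-Hochberg adjusted p of 1.62e-40. Vcl was likewise higher in the nuclear fraction, with levels of 25.8, 56.3 and 81.7 against 3.18, 10.2 and 20.0 and no overlap, a log2 difference of 2.00 ± 0.09 and an adjusted p of 5.18e-26 by edgeR. Since the pellet holds insoluble material too, transcripts in nuclei and transcripts bound to structures that resist both detergents cannot be told apart. The 6 markers of the endoplasmic reticulum were higher in this fraction too, with a median log2 difference of 1.85, and their part in the result was not tested.

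Actb had nuclear levels of 829, 1142 and 1670 and cytosolic levels of 1828, 2446 and 2826, again without overlap. Its log2 difference was -1.49 ± 0.08 with an adjusted p of 1.77e-21 by edgeR. Actg1 followed it closely, with a median of 261 against 526, no overlap and a log2 difference of -1.42 ± 0.09. The 4 subunit members were also lower in the nucleus: Cfl1 by a log2 difference of -1.69 ± 0.08, Pfn1 of -1.72 ± 0.08, Arpc2 of -1.21 ± 0.05 and Actr3 of -1.17 ± 0.05. Tpm1 differed less, with a log2 difference of -0.81 ± 0.05, and 4 of 16 cultures had a higher nuclear than cytosolic level. Each of these calls held with size factors of the relative log expression kind, which moved the median of all genes from 0.07 to 0.26.

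In sum 10 of 10 members were called in this comparison, where a call needs adjusted p below 0.05 together with a log2 difference beyond 0.5 either way, against 66.4% of all 18902 genes tested (36.8% higher and 29.6% lower). The counts were 3 higher and 3 lower among the serum response members, and 0 higher and 4 lower among the subunit members. The median difference was 0.03 for serum response members, -1.45 for subunit members and 0.07 for all genes. Among other listed actin genes the split differed by function: of 18 further myosins and cross-linkers 10 were higher and 6 lower in the nucleus, among them the spectrin Sptbn1 (5.56) and Actn4 (3.92), on the log2 scale. Of 17 other turnover genes 1 was higher and 14 were lower, led by the thymosins Tmsb10 (-2.61) and Tmsb4x (-2.08) and by Dstn (-1.81), a relative of cofilin. Of 16 other Arp2/3 and nucleation genes 2 were higher and 10 lower, and of 17 other serum response targets tested 5 were higher and 11 lower.

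Myh9 changed with the replicate pair. Its nuclear level was 67.0 to 81.0 in replicates 1 and 2, 180 to 279 in the used libraries of replicates 3 and 4, and 37.6 to 85.5 in replicates 5 and 6, while its cytosolic level was 52.2 to 76.4, 14.3 to 41.0 and 36.1 to 46.2 in the same order. Averaged over all 8 conditions the log2 difference was 0.88 ± 0.11 with an adjusted p of 4.66e-10 by edgeR. Within pairs it was -0.23 in replicates 1 and 2, 2.38 in replicates 3 and 4 and 0.29 in replicates 5 and 6, and only the value of replicates 3 and 4 was called. At 20 min, the 1 time both of the first 2 pairs share, the nucleus to cytosol difference of Myh9 was larger by 2.56 ± 0.44 on the log2 scale in replicates 3 and 4, with an adjusted p of 2.69e-05 in the edgeR test of this difference, a comparison chosen after seeing the data. Flna (1.47 ± 0.29) and Vcl (0.95 ± 0.34) moved the same way, and Cfl1 (-1.01 ± 0.30), Arpc2 (-0.89 ± 0.20) and Actr3 (-0.77 ± 0.20) the opposite way. These 6 of 10 members compare with 25.4% of all genes. For membrane against cytosol the same test called 0 members and 0.0212% of all genes, with 2293 genes at an unadjusted p under 0.05. The 5 nuclear RNA markers had a median of 1.30 for the same difference, with 2 called higher, and their part in the result was not tested.

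The membrane fraction was set against the cytosol, again by relative level, to ask which messages are enriched at the endoplasmic reticulum or other digitonin-resistant sites. Vcl was the member most biased to it, with membrane levels of 29.8, 65.7 and 99.2 against 3.18, 10.2 and 20.0 in the cytosol, without overlap, and 4.05 to 14.0 times more in the membrane within each of 16 cultures. Its log2 difference was 3.16 ± 0.09 with an adjusted p of 6.11e-34 by edgeR. Vinculin itself is a cytoplasmic protein without a signal peptide. Flna was higher in the membrane by 1.55 ± 0.07 (log2), in 16 of 16 cultures, and Myh9 was lower, by -0.80 ± 0.11. These 3 of 10 members compare with 34.7% of all genes. The 6 markers of the endoplasmic reticulum had a median of 4.42.

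The remaining 7 members had membrane to cytosol log2 differences of -0.43 to -0.11 and were not called. Of these, 5 crossed the limit when 1 replicate was left out. Without replicate 4 the values were -0.55 for Actb, -0.59 for Actg1, -0.58 for Cfl1, -0.67 for Pfn1 and -0.53 for Tpm1, all called, and without replicate 3 those of Actg1 (-0.52) and Pfn1 (-0.55) were called, and without replicate 1 that of Pfn1 (-0.50). All genes shifted too. Their median was -0.11 with all replicates, and -0.24, -0.31 and -0.12 without replicate 4, 3 and 1. The share of all genes called was 34.7% with all replicates, and 44.9%, 47.7% and 31.7% in the same order. Among other listed actin genes the largest membrane bias was that of the secreted serum response targets Ccn1 (4.45) and Ccn2 (3.81) and of the formin Diaph1 (2.35). Lcp1 (-0.88), Myl9 (-0.87) and Capza1 (-0.84) were the most cytosolic.

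Whether labeling time moved mRNA levels depended on the fit. In 10 comparisons of times within a replicate pair, in nucleus and whole cells, edgeR called 0 of 10 members, and at an unadjusted p under 0.05 it found between 143 and 3676 genes per comparison. The share of all genes called was 4.28% in the nucleus at 120 against 20 min, 0.243% at 60 and 0.0159% at 40 against 20 min, 0.794% in whole cells at 120 against 20 min and 0% in the other 6. The comparisons of 120 against 20 min use the libraries of replicates 3 and 4 that were set aside elsewhere. DESeq2 called Cfl1 higher in the nucleus at 40, 60 and 120 against 20 min, edgeR with the replicate number as a block called Cfl1 (0.87, 0.72 and 0.62) at the same times, Actb at 40 (0.63) and 120 min (0.54) and Vcl at 40 min (0.56), and edgeR without replicate 4 called Actb (0.95), Actg1 (0.84), Cfl1 (1.30) and Arpc2 (0.54) higher at 40 against 20 min. At 20, 40 and 60 min in replicates 3 and 4, whole-cell Actb levels were 2695, 2779 and 2772 in replicate 3 and 2059, 2678 and 2311 in replicate 4.

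The share of new RNA, the T2C counts over T counts divided by the conversion rate of the library, tells how much of each mRNA was made since 4sU was added. No background was subtracted, so values near 0.01 at short times may hold sequencing errors, and shares can exceed 1 because the conversion rate is an estimate. In the nucleus the exonic share of Actb was 0.0570 and 0.0380 at 15 min, 0.0613 and 0.0784 at 20 min and 0.0851 and 0.0871 at 30 min in replicates 1 and 2. In replicates 3 and 4 it was 0.183 and 0.125 at 20 min, 0.0905 and 0.0919 at 40 min and 0.135 and 0.0984 at 60 min. In replicates 5 and 6 it was 0.0822 and 0.0744 at 60 min and 0.123 and 0.121 at 120 min. The median gene meanwhile went from 0.0270 at 15 min in replicates 1 and 2 to 0.429 at 120 min in replicates 5 and 6. In both replicates 3 and 4 the Actb share was lower at 40 and 60 min than at 20 min, although longer labeling adds new RNA. The absolute Actb shares at these times are therefore uncertain, and the cause was not tested.

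Nuclear Actb lay above the median gene at 15 min and far below it at 120 min. On average over both libraries, 74.9% of genes had a lower share at 15 min and 3.55% at 120 min. These ends come from different replicate pairs and labelled doses, so pair, dose and time cannot be told apart between them. Actg1 showed the same pattern at higher values. Its nuclear share was 0.0867 and 0.0559 at 15 min, when the median gene had 0.0270, and 0.178 and 0.165 at 120 min. In the nucleus and in whole cells Actg1 exceeded Actb in share in 16 of 16 libraries, with a median log2 ratio of 0.51 and 0.43, and in cytosol and membrane in 14 of 16 each. Its level was lower than that of Actb in 16 of 16 libraries of each fraction, by a median log2 ratio of -2.23 to -2.08.

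**Figure D2:**
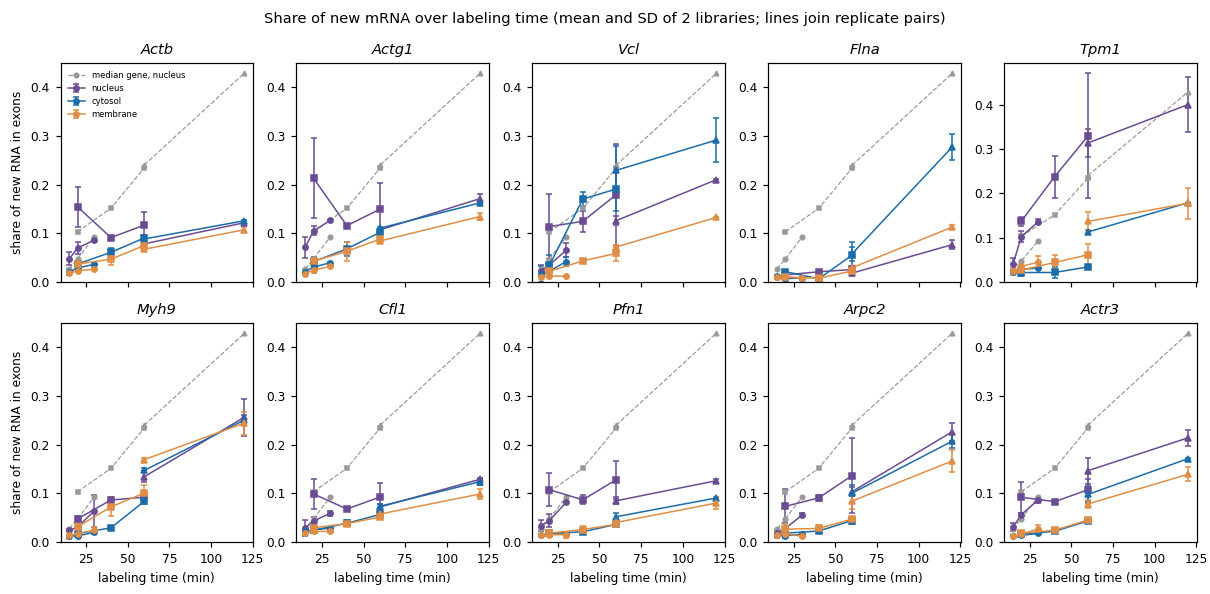
Share of new RNA in exons against labeling time in minutes for each gene in nucleus, cytosol and membrane, as mean and SD of 2 libraries, with lines joining the times of a replicate pair and dashed grey lines for the median gene. The nuclear curves of Actb and Actg1 start above the median gene and stay below it from 40 min on, and the cytosolic curve of Vcl runs above its membrane curve.

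The turn of these curves was tested as the change of the log2 share against the median gene between times of 1 replicate pair, by limma across 11575 genes, a comparison chosen after seeing the data. In the nucleus, 60 against 20 min in replicates 3 and 4, Actg1 fell by 1.65 ± 0.22 (log2, SE), Actb fell by 1.54 ± 0.17 with an adjusted p of 6.30e-07, and Cfl1 fell by 1.24 ± 0.19. Actr3 fell by 0.91 ± 0.19 and Pfn1 fell by 0.90 ± 0.22. These 5 of 10 members compare with 8.87% of all genes called. At 40 against 20 min the same 5 members were called, against 4.38% of all genes, with -1.37 for Actg1, -1.27 for Actb, -1.05 for Cfl1, -0.83 for Pfn1 and -0.66 for Actr3. In replicates 1 and 2, where 30 min was set against 15 min, Actb (-0.85), Actg1 (-0.87), Cfl1 (-0.64) and Flna (-2.07) were called, against 4.66% of all genes. The Flna shares at both times are among the low values that may hold sequencing errors, as no background was subtracted. The conversion rate in these nuclear libraries was 2.20% and 2.67% at 15 min and 3.52% and 4.84% at 30 min. Its part in the Flna value was not tested. The 20 min library of replicate 3, with the highest intronic content of all, also held the highest Actb and Actg1 shares of the used nuclear libraries. Without replicate 3, Actb (-1.42), Actg1 (-1.54) and Cfl1 (-1.16) were still called at 60 against 20 min, but Actr3 (-0.70) and Pfn1 (-0.81) were not. At 40 against 20 min 0 members were called without replicate 3, with values of -1.14 for Actb, -1.12 for Actg1, -0.94 for Cfl1, -0.54 for Pfn1 and -0.44 for Actr3. Without replicate 4 Pfn1 was lost at 60 min (-1.01), and Pfn1 (-1.11) and Actr3 (-0.88) at 40 min. At 30 against 15 min, Actg1 (-0.94) and Cfl1 (-0.40) were not called without replicate 1, nor Actb (-0.76), Actg1 (-0.80) and Flna (-1.75) without replicate 2. Leaving out 1 of these cultures leaves 1 library a time, and the lone library is assumed to vary like the other groups. Some calls near the limit were also lost without replicates that enter only through the shared spread: Cfl1 at 30 against 15 min without any of replicates 3 to 6, Actg1 there without replicate 5 or 6, and Pfn1 and Actr3 at 40 against 20 min without replicate 5 or 6.

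In whole cells some of these members also fell against the median gene, while Actg1 was not called there (-0.72 at 60 against 20 min, adjusted p = 0.0539 by limma). At 60 against 20 min in replicates 3 and 4 Pfn1 (-0.98 ± 0.22), Actr3 (-0.92 ± 0.19), Cfl1 (-0.71 ± 0.19) and Actb (-0.63 ± 0.17) were called by limma, against 4.66% of all genes. At 30 against 15 min Flna (-1.76), Arpc2 (-0.89), Cfl1 (-0.85) and Actb (-0.53) were called, against 11.9% of all genes. With no background subtracted, the low Flna shares may hold sequencing errors here too. At 60 against 20 min Pfn1 alone was called without replicate 3 and 0 members without replicate 4, with values over all left-out replicates of -0.65 to -0.61 for Actb, -0.77 to -0.66 for Cfl1, -1.10 to -0.76 for Actr3 and -1.41 to -0.56 for Pfn1. At 30 against 15 min Arpc2 and Actb were not called without replicate 1, nor Flna too without replicate 2, with values of -0.98 to -0.79 for Arpc2, -0.59 to -0.47 for Actb and -1.92 to -1.60 for Flna. Without replicate 5 or 6, Actb and Cfl1 at 60 against 20 min and Arpc2 and Actb at 30 against 15 min were lost as well. At 40 against 20 min 1 member, Actr3 (-0.77), was called, against 1.1% of all genes, and was lost without any of replicates 3 to 6. These comparisons set no library of replicate 6 against another. Between 120 and 60 min in replicates 5 and 6 limma called 0 members and 0 genes in the nucleus and in whole cells, where an unadjusted p under 0.05 was found for 242 and 5 genes. Without replicate 6 it also called 0 members in whole cells.

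Averaged over all times, Flna was the member with the least new RNA. Its nuclear share was 0.0110 and 0.00924 at 15 min, 0.00770 and 0.00718 at 30 min, 0.0197 and 0.0169 at 60 min in replicates 5 and 6, and 0.0835 and 0.0700 at 120 min. In the nucleus it was below the median gene in every library, with 0.12% to 15.3% of genes lower. The mean log2 difference to the median gene was -2.67 ± 0.10 with an adjusted p of 1.07e-22 by limma. It was -1.14 ± 0.10 in the cytosol, -1.54 ± 0.10 in the membrane and -1.75 ± 0.10 in whole cells (-1.76 without replicate 6). The nuclear shares of Flna rest on 253 to 4293 converted positions a library, the cytosolic ones on 2 to 451.

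Other members lay below the median gene to a lesser degree. In the nucleus Cfl1 (-0.84), Arpc2 (-0.78), Myh9 (-0.77) and Pfn1 (-0.61) were called with Flna, 5 of 10 members against 55.3% of all genes. In the cytosol Pfn1 (-0.98), Actr3 (-0.79) and Arpc2 (-0.72) were called with Flna, 4 of 10 against 64.4%. In the membrane Pfn1 (-0.98), Vcl (-0.68), Actr3 (-0.65) and Arpc2 (-0.61) were called with Flna, 5 of 10 against 64.2%. In whole cells Arpc2 (-0.98), Pfn1 (-0.87), Vcl (-0.83), Cfl1 (-0.78) and Actr3 (-0.66) were called with Flna, 6 of 10 against 61.3%. The same 6 were called without replicate 6. Near the limit, Vcl in the nucleus was called without replicate 1 (-0.54), 3 (-0.60) or 6 (-0.51). Every called member lay below the median gene in these 4 comparisons, but members were called no more often than all genes. The split of all genes by direction is not given here. Of 69 other listed actin genes tested, 11 were higher and 34 lower in the nucleus, and 9 and 30 in the cytosol. In the membrane 10 were higher and 30 lower, and in whole cells 8 and 36.

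These averages join values that differ between replicate pairs, whose times differ. In the nucleus the log2 difference of Actb to the median gene was 0.40 in replicates 1 and 2, -0.38 in replicates 3 and 4 and -1.69 in replicates 5 and 6, and that of Actg1 was 0.96, -0.02 and -1.23. Cfl1 went from -0.25 to -0.85 and -1.71, and Pfn1 from -0.00 to -0.55 and -1.62. Arpc2 was steadier, at -0.66, -0.72 and -1.06, and Flna had -2.27, -2.83 and -3.02.

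**Figure D3:**
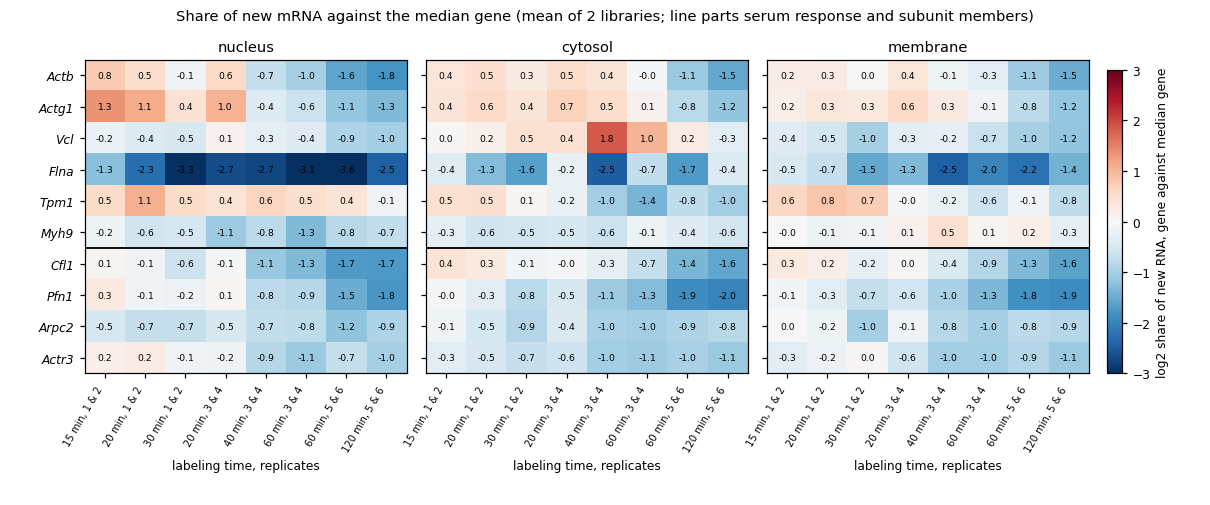
Colour scale of the log2 share of new RNA of each gene (rows) against the median gene of the same condition (columns: labeling time and replicate pair) in nucleus, cytosol and membrane, as means of 2 libraries, with a line between serum response and subunit members. Actb, Actg1, Cfl1 and Pfn1 go from near or above the median gene at short times to well below it at 60 and 120 min, while nuclear Flna is below it throughout.

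Among the members, those listed as serum response targets carried more new RNA than the subunit members in most libraries. The median log2 difference to the median gene was higher for the 6 serum response members than for the 4 subunit members in 16 of 16 libraries of nucleus, cytosol and whole cells and in 15 of 16 of the membrane, by a median of 0.23, 0.65, 0.37 and 0.27. With Cfl1 and Pfn1 counted among the serum response members, which some lists do, it was higher in 10 nuclear, 13 cytosolic, 12 whole-cell and 10 membrane libraries, by a median of 0.079, 0.51, 0.39 and 0.14. For introns the serum response members were higher in 8 of 16 nuclear libraries. Flna was the lowest of all 10 members in this measure although it belongs to the serum response group. The libraries measure the same 10 chosen genes again, so these counts describe those genes only. Averaged over conditions, the 10 other serum response targets tested had medians of -0.22, -0.70, -0.24 and -0.76 in nucleus, cytosol, whole cells and membrane. The subunit members had -0.70, -0.75, -0.82 and -0.63 in the same order.

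The share of new RNA was compared between nucleus and cytosol next, and the members went with most genes. It was higher in the nucleus than in the cytosol for 8 of 10 members, against 77.2% of all genes higher, 0.847% lower and 78.1% called in all. Tpm1 had the largest difference, 2.05 ± 0.13 (log2, SE) with an adjusted p of 1.78e-15 by limma, followed by Pfn1 (1.48 ± 0.11), Actr3 (1.45 ± 0.11), Actg1 (1.07 ± 0.10), Arpc2 (1.05 ± 0.14), Actb (0.78 ± 0.10), Myh9 (0.78 ± 0.12) and Cfl1 (0.68 ± 0.11). The median over all genes was 1.06. Within replicates 5 and 6, at 60 and 120 min, 2 members were called, Tpm1 higher (1.30) and Flna lower (-1.69), and 628 genes in all. For Actb the nuclear share exceeded the cytosolic one in the early pairs, by a log2 difference of 1.17 in replicates 1 and 2 and 0.96 in replicates 3 and 4, while in replicates 5 and 6 it was -0.11.

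Vcl and Flna, both biased to the nuclear fraction in level, were the exceptions. The nuclear to cytosolic share difference was 0.21 ± 0.17 for Vcl and -0.42 ± 0.17 for Flna, and neither was called, though Flna was without replicate 3 (-0.53). In replicates 5 and 6, at 60 and 120 min, Flna had a log2 difference of -1.69 and was called: its cytosolic share at 120 min was 0.296 and 0.258 while its nuclear share was 0.0835 and 0.0700. Among other listed actin genes Sptbn1 (-1.67), also among the most nuclear in level, and Ccn2 (-0.56) had a lower share in the nucleus than in the cytosol.

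Vcl was the only member whose share was called different between membrane and cytosol, 1 of 10 against 13.4% of all genes. In replicates 3 and 4 its share was 0.160 and 0.181 in the cytosol at 40 min and 0.0464 and 0.0406 in the membrane. In replicates 5 and 6 at 120 min it was 0.324 and 0.260 against 0.133 and 0.132. The membrane to cytosol difference of Vcl was -1.18 ± 0.17 (log2) with an adjusted p of 8.20e-07 by limma, and -0.87, -1.37 and -1.37 within the 3 pairs. The cytosolic shares of Vcl rest on 6 to 296 converted positions a library. All 6 markers of the endoplasmic reticulum were also lower in the membrane, with a median of -1.70. Without replicate 3 or replicate 5 Flna was called as well (-0.59 and -0.52), and without replicate 4 Tpm1 was (0.66).

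Introns report here on poly(A)-selected RNA that is not yet fully spliced. The study treats the rate of their removal as maturation after polyadenylation. Intronic T positions made up a median of 1.90% of all T positions of Actb in the nucleus, 2.75% of those of Cfl1, 3.03% for Flna, 3.20% for Actg1, 5.74% for Myh9 and 13.7% for Vcl. Actr3 had 19.1%, Pfn1 20.8%, Arpc2 34.7% and Tpm1 46.1%, and the median gene had 34.5%. The genes span 3.64 kb for Actb, 2.85 kb for Actg1 and 2.79 kb for Pfn1.

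The intronic share of Actb was 0.776 and 1.02 at 15 min, the first time measured, and between 0.882 and 1.26 from 20 min on. Actg1 had 0.719 and 0.672 at 15 min, Cfl1 0.605 and 0.535, and Myh9 0.411 and 0.394. Flna, with 0.0541 and 0.0415, and Tpm1, with 0.0625 and 0.0547, were the slowest, and the median gene had 0.134. By 120 min in replicates 5 and 6 the shares of all members lay between 0.783 and 1.06.

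Averaged over the 8 conditions, intronic shares were above the median gene for Actb by 1.19 ± 0.04 (log2, SE; adjusted p of 1.45e-09 by limma), Actg1 by 1.02 ± 0.04, Cfl1 by 0.90 ± 0.04 and Myh9 by 0.68 ± 0.03. They were below it for Flna (-0.91 ± 0.05) and Tpm1 (-0.70 ± 0.06). These 6 of 10 members compare with 39.5% of all 11117 genes tested, 15.6% higher and 24.0% lower. The differences shrank with time as all shares neared 1: for Actb they were 2.20 in replicates 1 and 2, 0.91 in replicates 3 and 4 and 0.11 in replicates 5 and 6. Myh9 was thus fast at its introns and slow at its nuclear exons, with -0.77 there, while Tpm1 was slow at its introns and had the highest nuclear exonic share of the members from 40 min on, 0.336 and 0.292 at 60 min in replicates 5 and 6. Of 62 other listed actin genes tested, 19 were above the median gene at introns and 4 below it, led by Tmsb4x (1.07) and Myl12a (0.90) and by Tpm2 (-1.20), Cttn (-0.88) and Limk2 (-0.65).

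**Figure D4:**
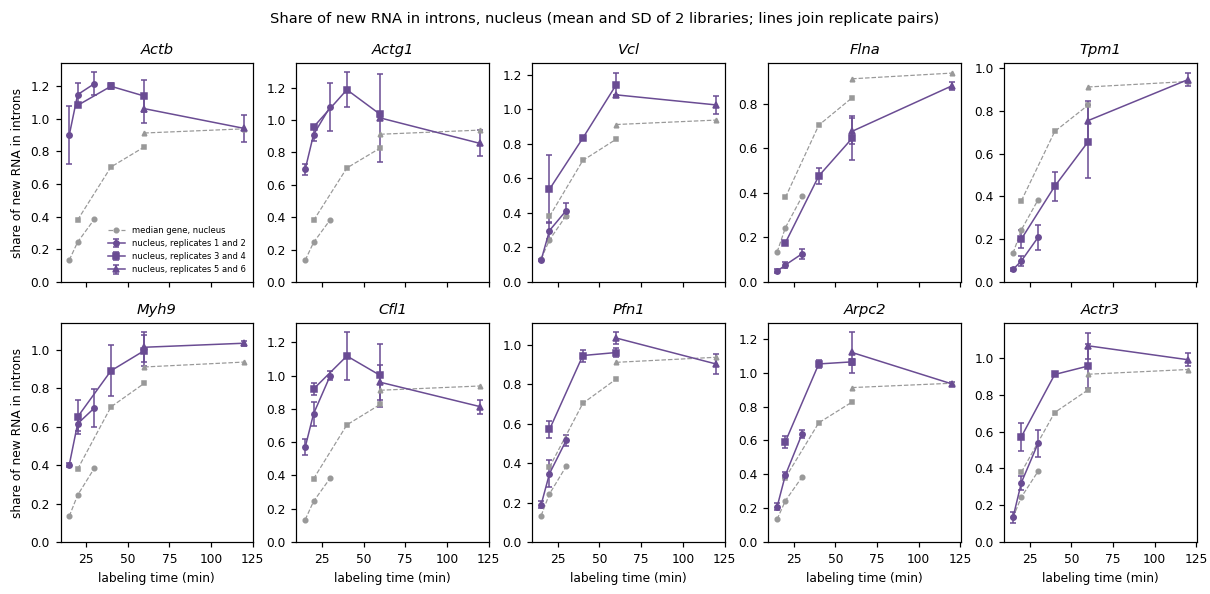
Share of new RNA in introns of the nuclear fraction against labeling time in minutes for each gene, as mean and SD of 2 libraries, with dashed grey lines for the median gene. Actb starts at 0.900 at 15 min, Flna at 0.0478 and Tpm1 at 0.0586, and all genes come near 1 by 120 min.

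Intron level, given as T positions scaled to a fixed intronic total per library, was called different between labeling times in 2 members. Both calls came from 120 against 20 min in replicates 3 and 4. The 120 min libraries of this pair were set aside elsewhere and their dose is uncertain. Intronic Actg1 was 68.3 and 87.6 at 20 min and 43.8 and 28.0 at 120 min in replicates 3 and 4, and limma gave a log2 change of -1.13 ± 0.23 with an adjusted p of 0.0107. Intronic Myh9 was 81.0 and 84.2 at 20 min and 132 and 165 at 120 min, a change of 0.83 ± 0.20 with an adjusted p of 0.0243. These 2 of 10 members compare with 4.43% of 13333 genes. In the other 4 comparisons of times limma called 0 members and at most 0.0075% of all genes, and at an unadjusted p under 0.05 it found between 36 and 1600 genes. Scaled to exonic T positions instead, neither was called (-1.69 for Actg1, 0.27 for Myh9). Neither was called without replicate 4 (-0.63 and 0.70), and Myh9 was not called without replicate 5 or 6 either (0.83 each).

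A polymerase already inside a gene when 4sU arrives labels only what lies ahead of it, so the distance of an exon to the 3′ end is a natural axis for new RNA. For the long members the exons were ordered by distance to the 3′ end, split into 3 groups of equal number, and the median share of the group nearest to that end was set beside that of the farthest group, with no test. In Vcl, which spans 104 kb, the near group was higher in 9 of 10 nuclear libraries of 15 to 40 min and in 3 of 6 later ones. Its far group lay 32.5 to 51.0 kb from the 3′ end, so the exons used do not reach the 5′ end. Over the early libraries the mean was 0.0544 near and 0.00559 far, and later it was 0.132 and 0.129. Myh9, with 81.6 kb and a far group at 20.8 to 52.5 kb, had the near group higher in 9 of 10 and 3 of 6 libraries. The early means were 0.0491 near and 0.0161 far. Flna, with 26.4 kb, had 7 of 10 and 4 of 6. In several early libraries the median exon of the far group of Vcl and Myh9 is listed at 0, since few converted positions fall on 1 exon.

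Tpm1, with 26.8 kb, behaved differently, in that its near group stayed higher in 16 of 16 libraries. The mean was 0.132 near and 0.0259 far in the early libraries and 0.325 and 0.138 in those of 60 and 120 min. At 120 min in replicates 5 and 6 the near group, 0.43 to 0.99 kb from the 3′ end, had 0.427 and 0.333, and the far group, 9.91 to 21.2 kb away, had a mean of 0.190. Tpm1 makes many isoforms by alternative starts, internal exons and last exons, and its exons were not assigned to isoforms here.

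**Figure D5:**
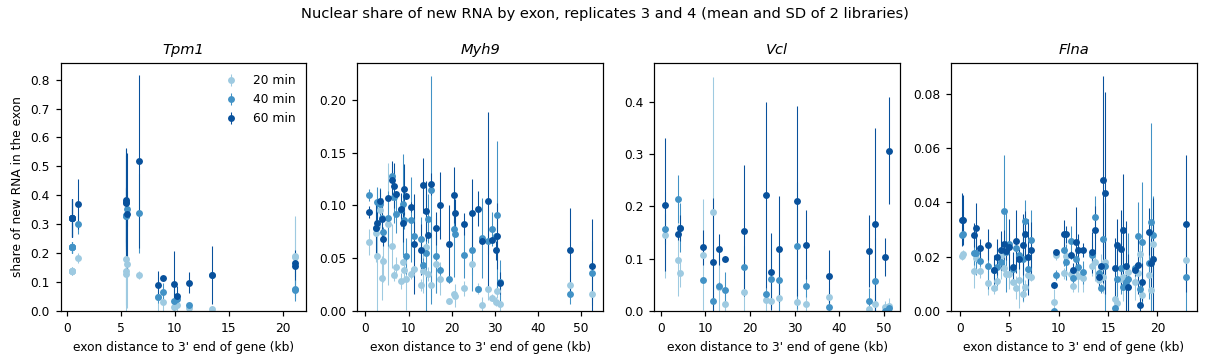
Share of new RNA of single exons in the nuclear fraction of replicates 3 and 4 against their distance in kb to the 3′ end of the gene, at 20, 40 and 60 min, for Tpm1, Myh9, Vcl and Flna, as mean and SD of 2 libraries (bars are cut at 0). In Tpm1 shares drop beyond the exons nearest the 3′ end at each time, while in Flna they stay low along the whole gene.

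Apparent half-lives in whole cells were derived from the shares at 60 and 120 min with 1 exponential, without replicate 6 unless stated. They were longest for Flna with 17.7 ± 8.06 h (SD, n = 4), Pfn1 with 13.3 ± 2.76 h and Cfl1 with 11.9 ± 1.98 h. Actr3 had 10.9 ± 4.95 h, Arpc2 10.4 ± 5.32 h, Actb 9.77 ± 1.00 h, Vcl 7.79 ± 2.06 h and Actg1 6.97 ± 0.70 h. Myh9 with 5.26 ± 2.82 h and Tpm1 with 5.18 ± 2.52 h were nearest the median gene, 4.25 ± 1.67 h. With replicate 6 the means were 14.4 h for Pfn1, 13.1 h for Cfl1, 10.6 h for Actb and 4.90 h for Tpm1. The hours moved with the replicate pair: Arpc2 had 12.6 and 16.8 h in replicates 3 and 4 and 6.32 and 5.71 h in replicate 5, and the median gene had 5.86 and 5.53 h against 2.79 and 2.83 h. The formula allows for no labeling delay and no exon distance to the 3′ end. The study reports longer half-lives from a simple whole-cell fit than from its model, most likely through length-dependent labeling and non-exponential kinetics. Flna shares at 60 min were 0.0238, 0.0414 and 0.0422 in replicates 3, 4 and 5, with no background subtracted. The part of these limits was not tested.

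Over all 64 libraries the genes with shares most like those of Actb were Tuba1b, a tubulin, Hsp90ab1, a chaperone, and Rps4l, with a mean absolute log2 difference of 0.205 to 0.216, against a median of 1.13 over all genes. For Vcl they were Slc7a5, Laptm4a and Rpn1, with 0.312 to 0.337. For Arpc2 they were Ppp2r5c, Raly and Timm23, with 0.242 to 0.248. These likenesses are over libraries that share cultures and are a description.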

How the data were processed

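Per the labels and the study's methods, the authors aligned reads with STAR 2.7.6 to GRCm38 (Gencode M14), counted uniquely aligned exonic reads per gene with HTSeq 0.11.1 and deposited raw counts. They also deposited, per gene and exon, counts of T positions and T2C conversions in exons and introns, a conversion rate per library (a fraction, from a binomial mixture model) and the ratio of these, the share. Reads outside features (3.09% to 27.8%) and not unique ones (19.4% to 34.9%) name no gene and were left out.

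Level contrasts used edgeR 4.0.16 (quasi-likelihood, TMM, filterByExpr) on all conditions in 1 fit. Shares used limma 3.58.1 on log2(share + 0.002) over genes with at least 400 T positions in every library, and intron levels limma on log2(T positions scaled to a fixed intronic total + 0.5). On such log scales changes of low values are understated. P-values measure the spread between 2 cultures a condition. A call required adjusted p below 0.05 (Benjamini-Hochberg) and a log2 beyond 0.5 either way. DESeq2 1.42.0 was an alternative. Reference annotation (GENCODE vM21) matched 51633 of 51826 identifiers. Members and gene lists were chosen with earlier results of these data known. Named beside members were at most the 3 largest called changes a direction among listed actin genes, and the 3 nearest share profiles of Actb, Vcl and Arpc2. Some genes this rule takes in are not reported here.

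On simulated data with 200 changed genes a step, 182 were recovered with 2 false calls for nucleus against cytosol (log2 change of 1, 2748 genes), 177 with 6 for whole cells at 60 against 20 min (log2 change of 2, 2748 genes), 181 with 9 for the share of nucleus against cytosol and 193 with 15 for the nuclear share against the median gene (log2 change of 1, 3000 genes each). The simulated libraries were drawn independently, with 1 spread for all genes and no difference between replicate pairs. False calls in the real data can therefore be more frequent. By the study's protocol, fractions and whole-cell extract of 1 number and time come from 1 culture. Deviations of such samples correlated by -0.13 to 0.27 (median 0.11, 28 of 54 pairs over 0.1).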

Additional observations from a re-analysis of the deposited data

Results flagged for a closer look

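Among 180 groups of 4 libraries of the same fraction and time, 8 held a member value far from the other 3, and chance alone gives about 1 in 20. Actg1 had a level of 464 in the membrane of replicate 4 at 60 min, against 273 to 288 in the others. It had 424 in the nucleus of replicate 4 at 20 min, against 230 to 248. Replicate 2 had the highest whole-cell levels at 20 min of Flna, with 415 against 172 to 180, and of Vcl, with 131 against 59.8 to 70.9. The exonic share of Actb in whole cells at 20 min was 0.0489 in replicate 1, against 0.0334 to 0.0357. The nuclear exonic share of Actg1 at 60 min was 0.187 in replicate 3, against 0.106 to 0.112, in a library with 29.4% of T positions in introns. For Vcl at 60 min in replicate 4, the membrane share was low with 0.0471, against 0.0703 to 0.0737, and the intronic share high with 1.19, against 1.08 to 1.09.

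The nucleus to cytosol difference in level at 20 min was tested between replicates 3 and 4 and replicates 1 and 2 for the members, and 6 of 20 differences, membrane to cytosol included, passed by edgeR. These were Myh9 (log2 difference 2.56, adjusted p = 2.69e-05), Flna (1.47, adjusted p = 0.000184), Vcl (0.95, adjusted p = 0.0323), Cfl1 (-1.01, adjusted p = 0.0102), Arpc2 (-0.89, adjusted p = 0.000621) and Actr3 (-0.77, adjusted p = 0.00334). The pairs are separately passaged cultures, and what sets them apart was not tested.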

How the results depend on the processing

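Of the main results, 376 alternative values stayed near the main value and 57 moved. A count stayed if it was within a set factor of the main count, and other values if they were within the SD over libraries. Of the values of single members, 1942 kept direction and side, 84 fell short of a limit, 70 newly passed it and 14 turned direction where a value was called or had an adjusted p under 0.05, all 14 within 1 replicate pair. Values near 0 that were not called also changed sign under other settings, among them the left-out replicates (Cfl1 intron level at 120 against 20 min ran from -0.65 to 0.26).

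Within replicates 1 and 2, Myh9 turned to -0.23 in nucleus against cytosol level and Arpc2 to 0.20 in membrane against cytosol level. Against the median gene's share, Actb turned to 0.40 in the nucleus, 0.17 in the membrane and 0.28 in whole cells, and in the cytosol Tpm1 turned to 0.33 and Cfl1 to 0.21. Within replicates 5 and 6 the nucleus against cytosol share turned to -0.11 for Actb and -0.054 for Myh9, and against the median gene Actg1 turned to -1.23 in the nucleus, -0.98 in the cytosol, -1.13 in whole cells and -0.0048 at introns, and Cfl1 to -0.067 at introns. The cause was not tested.

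Members called for level in membrane against cytosol were 6 within replicates 3 and 4, and 3 to 8 with 1 replicate left out. The share of all genes called was 41.9% within that pair, and 31.5% to 47.7% with 1 replicate left out. For the share of nucleus against cytosol, 628 genes and 2 members were called within replicates 5 and 6. For membrane against cytosol the same pair gave 552 genes and 2 members, replicates 3 and 4 gave 3 members, adding 120 min of replicates 3 and 4 gave 2, and leaving out 1 replicate gave 1 to 2. Against the median gene, nuclear members called were 8 with the added 120 min libraries and 9 within replicates 5 and 6. Cytosolic ones were 8 within that pair, and membrane ones 8 within it and 3 within replicates 1 and 2. The share of all genes called under these settings is not given here, so these counts say nothing about the members alone. Intron calls were 2801 genes at the higher of the tried minimums of T positions, and 439 genes and 0 members within replicates 5 and 6. The serum response members exceeded the subunit members by 0.079 in the nucleus once Cfl1 and Pfn1 were counted with them.

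Over the 10 comparisons of labeling time, DESeq2 called 1832 gene changes (3 of members), each fraction fitted alone 537, no filter 2025 (2 of members) and the replicate number as a replicate block 4504 (6 of members). Leaving out 1 replicate gave 413 to 1562 and 0 to 4 of members. For intron levels over time, scaling to exonic T gave 38 calls and 0 of members, the replicate block 1749, and leaving out 1 replicate 93 to 1739 and 0 to 3 of members. For changes of share against the median gene, a pseudocount of 0.01 gave 6477 calls, and leaving out 1 replicate 2044 to 6424 and 11 to 21 of members. With the replicate block Actr3 lost its calls at 40 against 20 min (adjusted p = 0.0580 in the nucleus and 0.0685 in whole cells), Actg1 gained 1 in whole cells at 60 against 20 min (adjusted p = 0.0266) and Actb 1 at introns (-0.72), and mRNA levels in the nucleus gained Cfl1 at 40, 60 and 120, Actb at 40 and 120 and Vcl at 40 against 20 min. No other call of a member changed. Between labeling times cultures were labelled separately and share only a number.

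Depth limits the shares of Flna and Vcl in the cytosol and of single exons. The labelled dose changes between 40 and 60 min, so by the labels dose and time cannot be told apart across that step. In replicates 3 and 4 the dose at 60 min is uncertain. Nuclear conversion rates there were 3.37% and 3.56% at 20 min, 6.04% and 5.95% at 40 min and 7.66% and 8.29% at 60 min. In replicates 5 and 6 they were 3.25% and 3.53% at 60 min. Which dose these libraries received was not tested.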

Other observations

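Other genes of actin biology, listed beside the 10 described, covered a wider range of new RNA. Against the median gene's nuclear share, genes called higher by limma included the secreted serum response target Ccn2 (log2 difference 1.86) and the coactivator Mrtfb (1.25). The 3 lowest were the severing protein Gsn (-3.98), the cross-linker Actn1 (-2.57) and the spectrin Sptbn1 (-2.27).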
